A study of Mus musculus with 4 samples.

Results

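The genes described here are 10 feedback genes of receptor tyrosine kinase signalling, and they were taken by symbol from a table of 54348 gene rows, in which each of the 10 symbols had 1 row. They are Dusp4, Dusp5 and Dusp6, Spry1, Spry2 and Spry4, Spred1 and Spred2, and Etv4 and Etv5. The data were RNA-seq profiles of live tdTomato-positive cells sorted by flow cytometry from mouse forebrain on postnatal day 4, after tamoxifen on days 0 and 1. Fusion mice were PdgfraCreER;MN1:BEND2;AI14 (2 libraries) and control mice were PdgfraCreER;AI14 (2 libraries). All mice thus carried PdgfraCreER, a recombinase that tamoxifen activates in cells expressing Pdgfra, and AI14, a reporter that marks recombined cells with tdTomato. MN1:BEND2 is a gene fusion of astroblastoma, a brain tumour. The promoter that drives the fusion in these mice is not stated in the labels, and none of them says whether R1 and R2 of a group came from separate animals. The comparison asks which levels of these genes the Pdgfra lineage had with the fusion and without it.

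Receptor tyrosine kinases such as Pdgfra, the platelet-derived growth factor receptor of oligodendrocyte precursors, signal through RAS and a kinase chain that ends in ERK. ERK signalling induces genes whose products damp the same pathway, so RNA levels of these genes are widely used as a readout of it. Dusp proteins remove phosphate from ERK-type kinases, Sprouty and Spred proteins act upstream, between receptor and RAF, and Etv4 and Etv5 are ETS transcription factors that ERK signalling induces.

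The libraries of the groups stood apart as a whole. Values were in TPM, a share of all transcripts per length, so read depth is unknown. Mitochondrially encoded genes held 48.7% and 26.2% of TPM in the fusion libraries and 10.1% and 7.30% in the control libraries, and 1 TPM was reached by 9050 and 10017 genes in fusion and by 12772 and 13219 genes in control. Bend2 was at 3.82 and 8.72 TPM in fusion and listed at 0 in both control libraries. The Y-linked gene Eif2s3y was listed at 0 in both fusion libraries and stood at 121 and 122 TPM in control, so sex and genotype cannot be told apart in any result below. Of 12871 genes tested with limma on log2(TPM + 1), 4.95% were higher and 51.3% lower in fusion at an adjusted p under 0.05, and the median log2 change was -1.41. For that reason the change of each tested member is also given relative to this median and after rescaling every library to a median ratio of 1, where 14.3% were higher and 18.6% lower and the median change was -0.15. Summed markers of other cells moved with the groups: 8 fibroblast markers held 485 and 966 TPM in fusion against 47.9 and 126 TPM in control, and 12 microglia and macrophage markers 495 and 724 TPM against 137 and 60.7 TPM. Mgp made up 364 and 717 TPM of the fibroblast sum in fusion and 0 and 1.34 TPM in control, and without it the other 7 markers held 121 and 249.1 TPM in fusion and 47.9 and 125 TPM in control, which overlap. Without Fcer1g, the highest of its list, the microglia and macrophage sums were 167 and 245 TPM in fusion and 109 and 59.6 TPM in control. Oligodendrocyte precursor markers (10 genes) held 454 and 580 TPM in fusion and 1285 and 1651 TPM in control, and 7 oligodendrocyte markers 182 and 147 TPM in fusion and 2041 and 2873 TPM in control. Of 7 fibroblast markers tested 3 rose (6 after rescaling), and of 11 microglia markers 4 rose and 2 fell (5 and 0 after rescaling). Of 10 oligodendrocyte precursor markers tested 7 fell, and after rescaling 2 were lower and 1 higher. All 6 oligodendrocyte markers tested fell (4 after rescaling), and Mog was listed at 0 in fusion, as was P2ry12 of microglia. Neuron markers (6 genes) held 41.1 and 23.7 TPM in fusion and 197 and 186 TPM in control. The 6 astrocyte markers held 36.6 and 57.8 TPM in fusion and 217 and 272 TPM in control. Of 5 tested in each list, 4 neuron and 3 astrocyte markers fell (2 and 1 after rescaling). Their part in the results was not tested, and in bulk samples fewer cells of a type cannot be told apart from less RNA per cell.

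All 10 members are protein-coding genes, and they lie on 9 chromosomes (GRCm38, GENCODE M21). Spred2 (chr11:19924375-20024026, plus strand) and Etv4 (chr11:101769742-101785371, minus strand) share chromosome 11. The others are Dusp4 (chr8:34807297-34819894, plus), Dusp5 (chr19:53529109-53542431, plus), Dusp6 (chr10:99263231-99267489, plus), Spry1 (chr3:37639947-37644598, plus), Spry2 (chr14:105891947-105896819, minus), Spry4 (chr18:38586247-38601415, minus), Spred1 (chr2:117121374-117182279, plus) and Etv5 (chr16:22381309-22439719, minus). Spry1 and Dusp5 each overlap an annotated gene on the other strand, as Spry4 does with Gm27369 and Gm27804, and the labels state no stranded kit. Those at Spry4 were listed at 0 in all 4 libraries, and the others were low: at most 0.111 TPM at Spry1 and at most 0.642 TPM at Dusp5, which is of the same size as Dusp5 itself and makes its values uncertain. The longest annotated transcripts ran between 2087 bases (Spry2) and 6016 bases (Spred1), and their GC content between 41.2% (Spred1) and 58.7% (Etv4). A correction for GC content and transcript length, added after the data were seen, left 0 of the 8 tested members lower and 1, Spred2, higher, against 2043 genes lower and 1717 higher in all.

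Dusp6, Spry1, Spry4 and Etv4 fell in the fusion libraries, and none of the 8 members tested rose. Of the 10 genes, 8 reached 1 TPM in at least 2 libraries and were tested, and 4 of these 8 were lower and 4 did not pass (limma, adjusted p under 0.05). That share, 50%, is close to the 51.3% of all genes tested. Both fusion libraries lay below both control libraries for 7 of the 8, against 71.1% of all genes tested. Spred2 alone lay above, against 10.2% of all genes. The members parted widely among themselves, with log2 changes between -2.89 for Etv4 and 0.95 for Spred2, and 4 lay below and 4 above the median of all genes. The sum over the 10 genes was 121 and 186 TPM in fusion and 364 and 415 TPM in control. After rescaling, 1 of the 8, Etv4, was lower and 7 did not pass, against 18.6% of all genes lower. Without control replicate 1, and likewise without control replicate 2, none of the 8 passed. A lone library left in a group is assumed to vary as those of the other group do, and the counts over all genes drop to 15 higher and 1105 lower, and to 14 higher and 1025 lower.

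**Figure D1:**
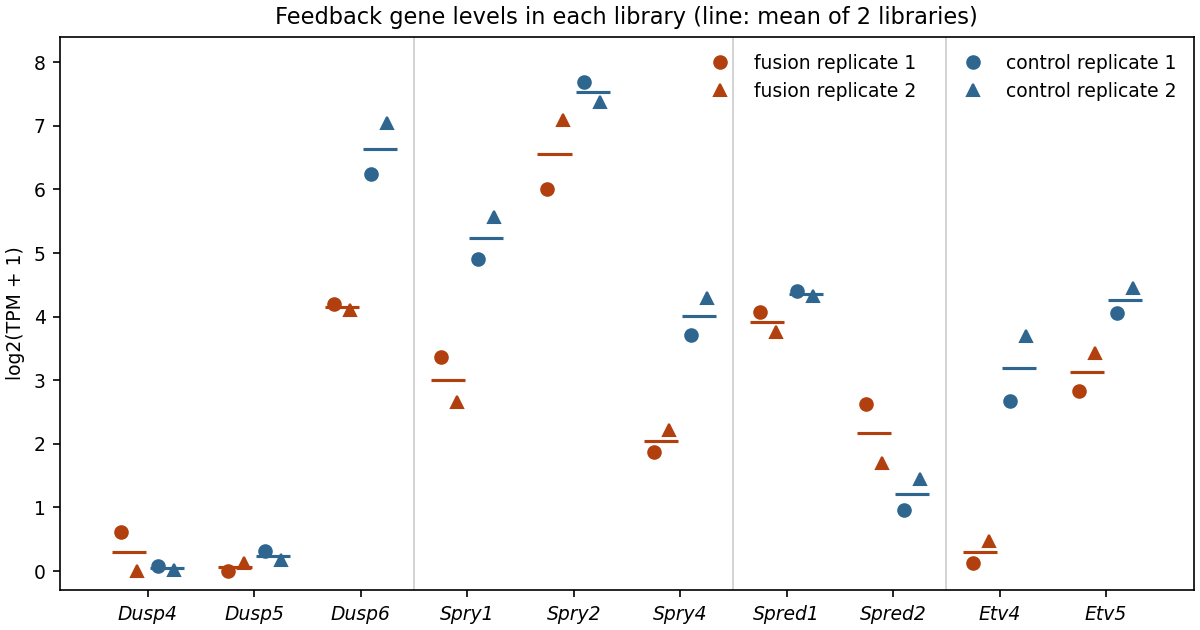
Level of each feedback gene in each library as log2(TPM + 1), with fusion libraries in red on the left of each gene and control libraries in blue on the right; circles are replicate 1, triangles replicate 2, and lines the mean of 2 libraries. The groups are parted for every tested member, with the fusion values the higher for Spred2 and the lower for the others. Dusp4 and Dusp5 stay under 1 TPM in every library.

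Of the phosphatases, Dusp6 carried nearly all the RNA. Dusp6, which acts on ERK in the cytoplasm, had 17.4 and 16.2 TPM in fusion and 75.0 and 130 TPM in control. Both fusion libraries were low and alike, and both control libraries were high, with replicate 2 the higher. The means were 16.8 ± 0.841 TPM in fusion and 103 ± 39.2 TPM in control (SD, n = 2). The log2 change was -2.49 ± 0.41 (SE, limma, adjusted p = 0.00704), or -1.08 relative to the median of all genes. After rescaling the change was -0.76 (adjusted p = 0.196). The rescaled fusion values lay below both control values for Dusp6, Spry4 and Etv4. They lay above both for Spry2, Spred1, Spred2 and Etv5, and Spry1 overlapped. The share of all genes parted in this way after rescaling was not counted. Within its library Dusp6 stood at or above 84.2% and 79.1% of tested genes in fusion and 84.6% and 89.1% in control. Dusp4, an inducible nuclear phosphatase, had 0.527 TPM and a listed 0 in fusion and 0.0537 and 0.0163 TPM in control. Dusp5, its nuclear relative, had a listed 0 and 0.0879 TPM in fusion and 0.240 and 0.128 TPM in control. The Dusp4 groups overlap, both Dusp5 values in fusion lay under those in control, and neither gene was tested.

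Promoter windows from RefSeq (GRCm38.p6; 250 bases before to 50 after a gene's start) were read for 7 of the 10 genes, with 8 windows because Etv5 has 2; Dusp4, Etv4 and Spry4 had no window used here. They were searched for CGGAAG, a core that ETS factors such as Etv4 and Etv5 bind, on both strands, where its other form is CTTCCG, and for the CArG box, to which serum response factor binds. The hexamer was in 3 of the 8 windows (37.5%), those of Dusp6, Spred1 and Spred2, and in 16.9% of all 32851 windows; the CArG box was in the Dusp5 window only, and in 1.63% of all windows. A match describes the letters and is no proof of a site. The Dusp6 window (chr10:99262981-99263280, plus strand) is shown because Dusp6 had the largest fall among genes with a window, and its hexamer, in capitals, starts at -62 from the start site. The Dusp5 window (chr19:53528895-53529194, plus strand) is shown for contrast, a gene under 1 TPM in every library that holds CArG boxes back to back, in capitals, starting at -82 and -72.
Dusp6: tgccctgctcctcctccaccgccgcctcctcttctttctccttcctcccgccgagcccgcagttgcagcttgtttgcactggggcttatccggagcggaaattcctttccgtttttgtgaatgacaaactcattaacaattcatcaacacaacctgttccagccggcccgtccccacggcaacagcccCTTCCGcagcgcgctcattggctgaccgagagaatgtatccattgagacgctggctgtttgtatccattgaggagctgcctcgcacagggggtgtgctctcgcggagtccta
Dusp5: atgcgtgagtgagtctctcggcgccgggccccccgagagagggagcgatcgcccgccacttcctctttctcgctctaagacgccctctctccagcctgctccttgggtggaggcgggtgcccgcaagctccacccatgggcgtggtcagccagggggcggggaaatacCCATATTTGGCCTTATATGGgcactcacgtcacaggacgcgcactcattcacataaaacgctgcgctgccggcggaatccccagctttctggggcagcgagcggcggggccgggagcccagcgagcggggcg

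Of the Sprouty genes, Spry1 and Spry4 fell and Spry2, the most abundant of the 10 in each library, did not pass. Sprouty proteins bind adaptor proteins and hold back RAS and RAF. Spry1 had 9.31 and 5.29 TPM in fusion and 28.9 and 46.4 TPM in control, groups that do not overlap. Its log2 change was -2.23 ± 0.47 (SE, adjusted p = 0.0135, limma), or -0.82 relative to the median, and -0.56 after rescaling (adjusted p = 0.476), where the groups overlapped. Spry4 had 2.64 and 3.65 TPM in fusion and 12.2 and 18.7 TPM in control, again without overlap. Its change was -1.97 ± 0.45 (SE, adjusted p = 0.0174), or -0.56 relative to the median and -0.44 after rescaling (adjusted p = 0.450). Spry2 had 63.6 and 136 TPM in fusion and 205 and 165 TPM in control. The fusion libraries differed from each other more than the control libraries did, and fusion replicate 2 lay close under control. The change of Spry2 was -0.98 (95% interval -2.16 to 0.20, adjusted p = 0.127). Without fusion replicate 1 it was -0.44 and without fusion replicate 2 it was -1.52. The median of all genes was -1.27 and -1.57 in these settings. Relative to the median Spry2 lay at 0.43, and after rescaling its change turned to 0.78 (adjusted p = 0.137). Spry2 made up 84.2% and 93.8% of the Sprouty TPM in fusion and 83.3% and 71.7% in control. The Spry1 window (chr3:37639697-37639996, plus strand) is shown as the other promoter read of a member that fell, and it has no match to either motif.
Spry1: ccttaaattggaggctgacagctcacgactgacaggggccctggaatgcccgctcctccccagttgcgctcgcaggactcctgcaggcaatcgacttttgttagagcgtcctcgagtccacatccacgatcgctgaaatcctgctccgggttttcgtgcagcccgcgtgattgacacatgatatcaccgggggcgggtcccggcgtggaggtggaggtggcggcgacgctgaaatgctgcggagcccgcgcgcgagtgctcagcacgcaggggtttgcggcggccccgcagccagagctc

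The Spred genes, whose products hold RAF inactive and recruit the RAS inhibitor neurofibromin, did not pass in either direction. Spred1 had 15.8 and 12.5 TPM in fusion and 20.1 and 19.1 TPM in control, a small gap with no overlap. Its change was -0.45 (95% interval -1.40 to 0.50, adjusted p = 0.344, limma), or 0.96 relative to the median, and it turned to 1.22 after rescaling (adjusted p = 0.0931). Spred2 had 5.14 and 2.26 TPM in fusion and 0.956 and 1.74 TPM in control. Both fusion libraries were the higher, though fusion replicate 2 was nearer to control. The change of Spred2 was 0.95 (95% interval -0.25 to 2.15, adjusted p = 0.139), or 2.36 relative to the median and 2.10 after rescaling (adjusted p = 0.0605). Spred2 passed as higher with quantile-normalized values (2.34, adjusted p = 0.0351) and with a correction for GC content and transcript length (2.49, adjusted p = 0.0177). Its change was 0.50 without fusion replicate 1 and 1.41 without fusion replicate 2, where the spread comes from the control libraries. Within its library Spred2 stood at or above 65.9% and 40.9% of tested genes in fusion and 5.02% and 11.2% in control, a rank that depends on how many genes lie near 0, and fewer genes reached 1 TPM in fusion. The Spred2 window (chr11:19924192-19924491, plus strand) is shown because Spred2 had the highest change of the 8 tested, with the hexamer, at -43, in capitals.
Spred2: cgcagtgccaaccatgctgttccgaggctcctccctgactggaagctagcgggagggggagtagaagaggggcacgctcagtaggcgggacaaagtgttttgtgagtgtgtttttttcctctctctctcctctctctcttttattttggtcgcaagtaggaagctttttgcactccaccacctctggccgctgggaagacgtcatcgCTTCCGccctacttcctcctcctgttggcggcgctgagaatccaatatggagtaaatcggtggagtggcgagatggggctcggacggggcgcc

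Etv4 had the largest fall of the 8 tested genes and Etv5, its close relative, did not pass. Etv4 had 0.0932 and 0.388 TPM in fusion and 5.36 and 12.03 TPM in control. It was thus near 0 in both fusion libraries and low to moderate in both control libraries. Etv4 reached 1 TPM only in control, so it was tested through the group where it was high and only a fall could be called. With the filter at a mean of 5 TPM or more Etv4 was not tested. The means were 0.240 ± 0.208 TPM in fusion and 8.69 ± 4.71 TPM in control (SD, n = 2), a 36.2-fold higher mean in control. On the log2(TPM + 1) scale, which understates the change of low genes, the change was -2.89 ± 0.49 (SE, adjusted p = 0.00752, limma), or -1.48 relative to the median. Etv4 was the member that still passed after rescaling (-1.93, adjusted p = 0.0299), but not after the correction for GC content and transcript length (-0.95, adjusted p = 0.140), so its call depends on that choice. Etv5 had 6.08 and 9.73 TPM in fusion and 15.7 and 20.9 TPM in control, without overlap. The change of Etv5 was -1.13 (95% interval -2.24 to -0.03, adjusted p = 0.0745). It lay at 0.27 relative to the median and turned to 0.49 after rescaling (adjusted p = 0.325). Etv5 changed by -0.83 without fusion replicate 1 and by -1.43 without fusion replicate 2. The median of all genes was -1.27 and -1.57 in these settings.

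**Figure D2:**
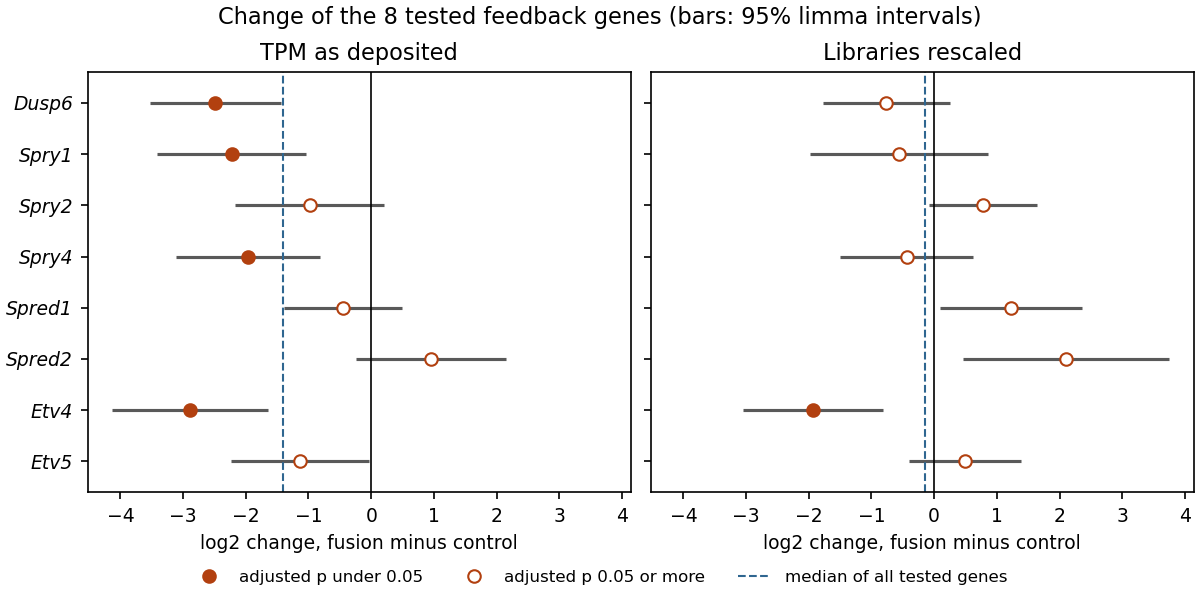
Log2 change, fusion minus control, of the 8 tested feedback genes with 95% limma intervals, for TPM as deposited (left) and for rescaled libraries (right); filled points have an adjusted p under 0.05 and the dashed line is the median of all tested genes, -1.41 on the left and -0.15 on the right. On the left 4 genes pass, and on the right Etv4 does, while Spry2, Spred1 and Etv5 move to the other side of 0.

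Ratios of 2 genes within a library do not change when that library is divided by a common factor, and they show how the genes shifted against each other. Quantile normalization and the correction for GC content and transcript length can change them. Under that correction Etv4 changed by -0.95 and Etv5 by 0.51, against -1.93 and 0.49 after rescaling. The 11 pairs, 8 of members and 3 of a member with Pdgfra, were chosen after the values were seen, and with 2 libraries a group the smallest 2-sided p of an exact permutation test is 0.333, so the ratios are given without a test. The ratio of Etv4 to Etv5 was 0.0153 and 0.0399 in fusion and 0.341 and 0.576 in control, the widest gap of the pairs formed. The ratio of Spred2 to Spred1 was 0.326 and 0.181 in fusion and 0.0477 and 0.0913 in control, also without overlap and the other way. Spry4 to Spry2 gave 0.0416 and 0.0269 in fusion and 0.0592 and 0.113 in control. In these 3 pairs of relatives the groups do not overlap, while Spry1 to Spry2 gave 0.146 and 0.0390 in fusion and 0.141 and 0.281 in control, which do. By contrast the ratio of Dusp6 to Spry1 was 1.87 and 3.07 in fusion and 2.59 and 2.81 in control. Dusp6 to Spry4 gave 6.59 and 4.45 in fusion and 6.17 and 6.98 in control. Spry4 to Spry1 gave 0.284 and 0.689 in fusion and 0.421 and 0.402 in control. These 3 ratios overlapped between the groups, with the wider spread among the fusion libraries. Dusp6 to Spry2, however, gave 0.274 and 0.120 in fusion and 0.365 and 0.790 in control, without overlap. Against Pdgfra, the receptor by which the cells were marked, Dusp6 gave 0.141 and 0.0846 in fusion and 0.222 and 0.304 in control, without overlap. Etv5 to Pdgfra gave 0.0492 and 0.0507 in fusion and 0.0467 and 0.0486 in control, values within a narrow range in all 4 libraries. Spry2 to Pdgfra gave 0.515 and 0.706 in fusion and 0.610 and 0.385 in control, which overlap.

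**Figure D3:**
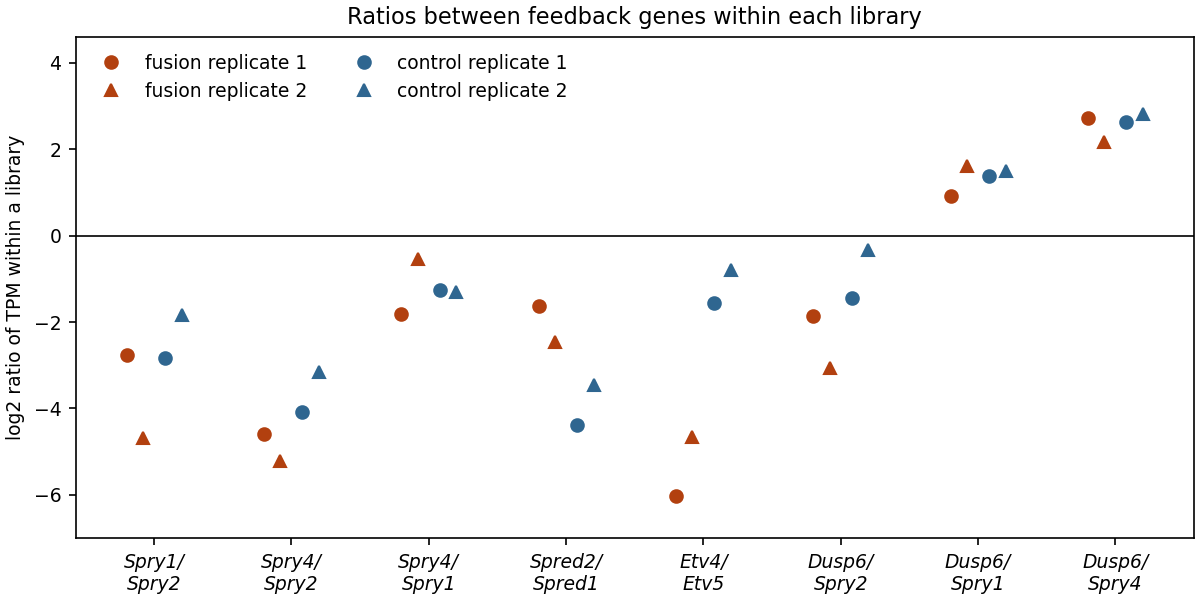
Log2 ratio of TPM between pairs of feedback genes within each library, fusion libraries in red to the left of control libraries in blue, circles for replicate 1 and triangles for replicate 2. Etv4 to Etv5, Spry4 to Spry2 and Dusp6 to Spry2 are lower in both fusion libraries and Spred2 to Spred1 higher. Dusp6 to Spry1 and Dusp6 to Spry4 overlap between the groups.

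Upstream of the feedback genes, Igf2 and Fgfr2 were the ligand and the receptor that rose, and 5 ligands and 6 receptors fell. Some of the ligands and some of the receptors that fell reached 1 TPM only in control. These were tested through the group where they were high, so only a fall could be called for them. Of 15 ligands, 8 were tested, of which 12.5% rose and 62.5% fell, against 4.95% and 51.3% of all genes, with a median change of -1.44. The ligand that rose was Igf2, an insulin-like growth factor, with 49.7 and 97.3 TPM in fusion and 6.10 and 23.2 TPM in control (log2 change 2.43 ± 0.71, SE, adjusted p = 0.0342, limma). Igf2 did not pass with a pseudocount, the value added to TPM, of 0.1 (adjusted p = 0.0558) or with no filter (adjusted p = 0.110). Without fusion replicate 2 (1.95) it did not pass either. Hbegf and Tgfa, ligands of the epidermal growth factor receptor, fell by 2.67 and 1.49 on the log2 scale (adjusted p = 0.0101 and 0.0273). After rescaling neither passed, with -1.29 for Hbegf (adjusted p = 0.105) and 0.21 for Tgfa. Pdgfa, a ligand of Pdgfra, had 3.73 and 8.69 TPM in fusion and 4.97 and 6.30 TPM in control, which overlap, and a change of 0.04 (adjusted p = 0.958). Igf1 changed by -0.24 without passing. Of 16 receptors, 12 were tested, of which 8.33% rose and 50% fell, close to the shares of all genes, with a median change of -1.08. Without control replicate 1 the median change was -1.62 for ligands and -1.16 for receptors, against -1.50 for all genes. Without control replicate 2 it was -1.17 for ligands and -0.98 for receptors, against -1.30 for all genes.

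Pdgfra itself had 123 and 192 TPM in fusion and 337 and 429 TPM in control, which do not overlap. Its log2 change was -1.30 ± 0.38 (SE, adjusted p = 0.0358, limma), and it turned to 0.46 after rescaling (adjusted p = 0.186). The sign did not turn with quantile-normalized values (-0.20, adjusted p = 0.578, limma). Nor did it with the correction for GC content and transcript length (-0.10, adjusted p = 0.794, limma). Pdgfra did not pass with no filter (adjusted p = 0.0818) or without mitochondrially encoded and ribosomal protein genes (-0.67, adjusted p = 0.0714). Ntrk2 and Ntrk3, receptors for neurotrophins, fell by 3.44 and 2.41 on the log2 scale (adjusted p = 0.00383 and 0.0102), and Ntrk2 also after rescaling (-1.74, adjusted p = 0.0212). Kit, the receptor of stem cell factor, changed by -0.60 without passing (adjusted p = 0.400). None of Fgfr1, Fgfr2 and Fgfr3, receptors of fibroblast growth factors, fell. Fgfr2, named after its value was seen as the receptor that rose, had 6.96 and 6.79 TPM in fusion and 0.470 and 2.19 TPM in control (1.86 ± 0.52, SE, adjusted p = 0.0303). Fgfr2 did not pass with a pseudocount of 0.1 (adjusted p = 0.0711) or with no filter (adjusted p = 0.0917). Nor did it pass without fusion replicate 1 (1.85) or without fusion replicate 2 (1.88). Fgfr1 had 11.1 and 15.7 TPM in fusion and 8.30 and 11.2 TPM in control, which overlap, with a change of 0.42 (adjusted p = 0.430). After rescaling Fgfr1 was higher by 2.03 (adjusted p = 0.0169), Fgfr2 by 3.04 and Fgfr3, also named after its value was seen, by 1.69. Of the fibroblast markers given above, Col1a1, Mgp and Foxc1 rose and 4 did not pass before rescaling. Their part in the values of Fgfr2 and Igf2 was not tested.

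The RAS-ERK chain itself was tested in full, with 19 of 19 genes, of which 5 fell (26.3%, against 51.3% of all genes) and 14 did not pass. Its median change was -0.98, which is 0.43 above that of all genes; with rescaled libraries 1 was higher and 18 did not pass. Mapk3, which encodes ERK1, had 2.66 and 0.0754 TPM in fusion and 18.5 and 28.6 TPM in control (-3.60 ± 0.71, SE, adjusted p = 0.0110, limma). Both fusion libraries lay below both control libraries for Mapk3. Araf, a RAF kinase, fell by 2.47 on the log2 scale, and Nras averaged 17.6 ± 8.87 TPM in fusion and 60.4 ± 11.9 TPM in control (SD, n = 2, adjusted p = 0.0256, limma). After rescaling none of Mapk3, Araf and Nras passed. The median change of the chain was -0.98 without fusion replicate 1 and -1.11 without fusion replicate 2, against -1.27 and -1.57 for all genes. It was -0.98 without control replicate 1 and -1.025 without control replicate 2, against -1.50 and -1.30 for all genes. A gene among the 5 that fell reached 1 TPM only in control, so only a fall could be called for it.

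Among other inhibitors of the pathway, Errfi1 rose and Dusp3 and Pea15a had the largest falls. Of 23 listed, 22 were in the table and 17 tested, of which 1 rose and 8 fell (47.1%, against 51.3% of all genes), with a median change of -1.01. Their median change was -1.45 without fusion replicate 1 and -1.20 without fusion replicate 2, against -1.27 and -1.57 for all genes. It was -1.11 without control replicate 1 and -1.11 without control replicate 2, against -1.50 and -1.30 for all genes. The inhibitor that rose was Errfi1, which blocks the kinase domain of epidermal growth factor receptors, with 11.9 and 6.76 TPM in fusion and 1.76 and 2.89 TPM in control. Its change was 1.61 ± 0.49 (SE, adjusted p = 0.0394, limma), and 2.96 after rescaling (adjusted p = 0.0239). Errfi1 did not pass with a pseudocount of 0.1 (adjusted p = 0.0628) or with no filter (adjusted p = 0.0852). Without fusion replicate 1 (1.24) it did not pass either. Dusp3, a small phosphatase, had 0.00497 and 0.746 TPM in fusion and 22.5 and 25.2 TPM in control (-4.23 ± 0.48, SE, adjusted p = 0.00384). Pea15a, whose product keeps ERK in the cytoplasm, had 13.6 and 38.2 TPM in fusion and 300.1 and 430 TPM in control (-3.91 ± 0.57, SE, adjusted p = 0.00532). Dusp3 and Pea15a were also lower after rescaling. Dusp3 reached 1 TPM only in control, so it was tested through the group where it was high and only a fall could be called. The same holds for some of the other inhibitors that fell. Rasa1, a RAS inhibitor, and Ppp2ca, a catalytic subunit of protein phosphatase 2A, changed by -0.64 and 0.06 and did not pass; after rescaling Ppp2ca was higher by 1.70 (adjusted p = 0.0373).

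Of 20 other genes that ERK signalling induces, 15 were tested, of which 7 fell (46.7%, against 51.3% of all genes), none rose and 8 did not pass, with a median change of -1.39, or 0.02 relative to all genes. A gene among the 7 that fell reached 1 TPM only in control, so only a fall could be called for it. Ccnd1, for cyclin D1, had the largest fall of the list, with 4.51 and 3.48 TPM in fusion and 113 and 139 TPM in control (-4.67 ± 0.37, SE, adjusted p = 0.00367, limma), and it was also lower after rescaling (-3.03, adjusted p = 0.0116). Etv1, the third ETS factor of the family of Etv4 and Etv5, had 7.56 and 7.54 TPM in fusion and 41.2 and 60.7 TPM in control (-2.58 ± 0.39, SE, adjusted p = 0.00585). Its rescaled change was -0.91 (adjusted p = 0.123), between those of Etv4 and Etv5. Under the correction for GC content and transcript length Etv1 was lower (-1.57, adjusted p = 0.0218, limma). That value lay below those of Etv4 (-0.95) and Etv5 (0.51), so the order depends on the scaling. Ier3 and Myc fell by 3.51 and 2.90 on the log2 scale and did not pass after rescaling. Under the GC and length correction Ier3 was lower (-1.94, adjusted p = 0.0347, limma), and Myc had no value. Phlda1 and Mcl1 changed by -0.62 and -0.10 without passing. Under the GC and length correction they were higher by 1.48 and 1.63 (adjusted p = 0.0244 and 0.0310, limma). As with the members, no gene named from these lists passed without control replicate 1 or without control replicate 2.

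**Figure D4:**
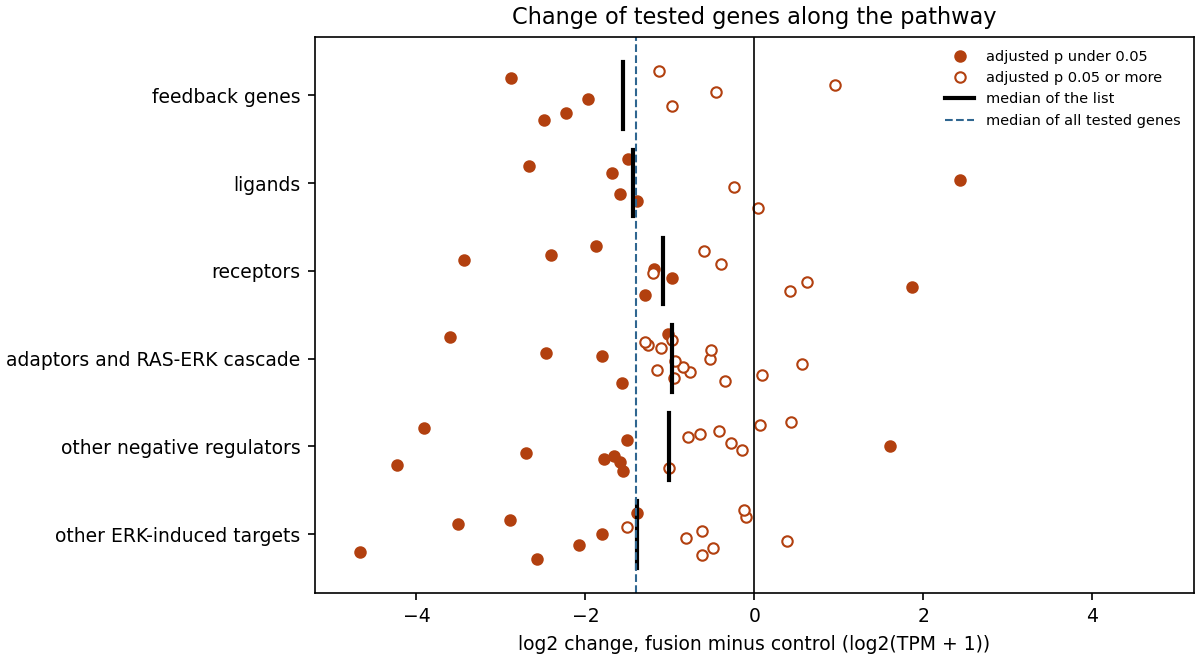
Log2 change, fusion minus control, of each tested gene of the feedback genes and of 5 other lists of the pathway; filled points have an adjusted p under 0.05, thick bars are list medians and the dashed line is the median of all tested genes at -1.41. List medians run from -1.55 for the feedback genes to -0.98 for the RAS-ERK chain, and rises that passed are limited to Igf2, Fgfr2 and Errfi1 among the genes shown.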

How the data were processed

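The authors deposited a single table of TPM for 4 libraries, in which each library sums to 1000000; per the submitters' processing notes the tools were Trimmomatic 0.39 and Salmon 1.8.0 and the build GRCm38 (mm10), while the sources used here do not give the annotation or the gene-level summing. Cells were sorted after a 30 min papain digestion and cDNA was amplified with a full-length single-cell kit, per the labels' protocols. Amplification copies are not marked. Columns were matched to samples by genotype and replicate number. TPM keeps no depth, so no counting interval is given, and the precision rests on 2 libraries a group.

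Genes at 1 TPM or more in at least 2 libraries (12871) were compared as log2(TPM + 1) with limma 3.58.1 in R 4.3.3 (mean-variance trend, 2-sided, Benjamini-Hochberg over all genes tested, threshold 0.05), with 2 residual and 3.25 prior degrees of freedom. The spread behind each p-value is only that between the 2 libraries of a group, and it may be technical. Rescaling divided each library by its median ratio over 10965 tested genes above 0 in every library. The fit was tested on simulated data. Named pathway genes were up to 4 called genes of mean 5 TPM or more with the largest change in a list and up to 2 uncalled genes of highest mean. Some genes that this rule names are not reported here. The members and lists were chosen with earlier results of these data known. Alternatives were other pseudocounts and filters, scalings, limma options, a replicate block and each library left out; the GC and length correction, the ratios and the marker sums without a list's highest gene were added after seeing the data.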

Additional observations from a re-analysis of the deposited data

How the results depend on the processing

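With 2 libraries a group, and TPM that keep no depth, the calls rest on few values. Genes higher in fusion numbered 637, but 353 with no filter, 405 at a mean of 5 TPM or more, 1031 without mitochondrially encoded and ribosomal protein genes, 1846 with median ratio scaling, 1948 with quantile normalization and 1717 with the GC and length correction; those 3 scalings gave 2396, 1955 and 2043 genes lower, against 6606. The lower share of calls was 91.2%, and 82.6%, 56.5%, 50.1% and 54.3% under the last 4 of those settings. Of the feedback genes, 0 were higher and 4 lower; 1 lower remained under median ratio scaling and 1 under quantile normalization (Etv4), 0 under the GC and length correction, and 1 (Spred2) was higher under quantile normalization and under that correction. Leaving out 1 library gave 14 to 1084 genes higher and 1025 to 7987 lower, with 0 to 1 feedback genes higher and 0 to 6 lower, and 0 of them called without either control library.

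The sign turned for Spry2 (0.78 with median ratio scaling, 0.51 with quantile normalization, 0.56 with the GC and length correction), for Spred1 (1.22, 1.26 and 0.65 in that order, and 0.15 without mitochondrially encoded and ribosomal protein genes) and for Etv5 (0.49, 0.53 and 0.51). Spry1 did not pass without mitochondrially encoded and ribosomal protein genes (-1.67, adjusted p = 0.0626, limma). The cause was not tested. Over the 8 genes and all settings, 84 values kept direction and side of the threshold, 19 lost the call, 5 gained one and 10 turned. Across tested genes, the difference between replicates 1 and 2 of fusion and that of control had a correlation of -0.04. With 2 libraries a group this cannot tell whether equal replicate numbers shared a batch. A replicate block in limma gave 642 genes higher and 6978 lower, with 0 feedback genes higher and 4 lower. Pdgfra had an adjusted p of 0.0563 in that fit. The GC and length correction, the ratios and the marker sums without a list's highest gene were added after the data were seen.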
